A study of Mus musculus with 6 samples.

Results

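Progression through the cell cycle is driven by cyclins, and 10 genes of that machinery are described here across 6 libraries of IL4-treated mouse macrophages: the D-type cyclin genes Ccnd1, Ccnd2 and Ccnd3, the E-type genes Ccne1 and Ccne2, the S phase and mitotic cyclin genes Ccna2, Ccnb1 and Ccnb2, the kinase gene Cdk1 and the inhibitor gene Cdkn1b. The members were taken by gene symbol, and each symbol matched 1 of the 16775 genes in the tables, so that 10 of 10 were found. All 10 passed the filter on low counts. In the 1,10-Phen library Ccna2 and Ccnb2 were at 0.482 counts relative to library size (CPM, defined below), under the filter level of 1, and passed through the other libraries.

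The macrophages came from C57BL/6 bone marrow kept for 5 days in M-CSF (10 ng/ml), a cytokine that both turns marrow cells into macrophages and keeps them dividing, and the treatment lasted 24 hours. IL4, a cytokine of alternative macrophage activation, was given alone in 1 library. In 5 further libraries a compound was added to it: fatostatin, betulin, 25-HC, PF429424 or 1,10-Phen. Every group thus carries IL4, no library without IL4 was analysed here, and the labels give no dose, no genotype beyond the strain, and no age or number of mice. Each treatment is 1 library of total RNA from 1 ug, so every value below compares libraries and not conditions, and none can be set against a spread between replicates or given a p-value.

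A cyclin binds and switches on a cyclin-dependent kinase (CDK), and the cyclins come and go in order. D-type cyclins are made in response to growth factors and act with CDK4 and CDK6 in G1 to inactivate the retinoblastoma protein, which frees E2F transcription factors. E-type cyclins then act with CDK2 at the entry to S phase, cyclin A2 with CDK2 and CDK1 through S and G2, and the B-type cyclins with CDK1 in mitosis. The product of Cdkn1b, p27, binds cyclin and CDK complexes and holds cells in G1 or in quiescence. In bone-marrow-derived macrophages M-CSF is known to sustain D-type cyclin expression, and genes of the mitotic group are known to be held off in resting cells by a repressor complex that recognises a promoter element with the core TTTGAA, often beside CCAAT boxes bound by NF-Y.

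RefSeq promoter windows on GRCm38.p6 were held for 6 of the 10 genes, Ccnb1, Ccnb2, Ccnd3, Ccne1, Cdk1 and Cdkn1b. Cdk1, Ccnb2 and Ccnb1 were lower together with 1,10-Phen in the data below, and Cdkn1b was higher there. With the other compounds Cdkn1b, too, was below IL4 alone. The 250 bases before the annotated gene start are shown for each of these genes. They lie at chr10:69352913-69353162 on the minus strand for Cdk1, chr9:70421555-70421804 on the minus strand for Ccnb2, chr13:100786487-100786736 on the minus strand for Ccnb1 and chr6:134920151-134920400 on the plus strand for Cdkn1b. Sequences run 5′ to 3′ on the strand of the gene, and capitals mark TTTGAA and CCAAT in either orientation (CCAAT on the opposite strand reads ATTGG).
Cdk1: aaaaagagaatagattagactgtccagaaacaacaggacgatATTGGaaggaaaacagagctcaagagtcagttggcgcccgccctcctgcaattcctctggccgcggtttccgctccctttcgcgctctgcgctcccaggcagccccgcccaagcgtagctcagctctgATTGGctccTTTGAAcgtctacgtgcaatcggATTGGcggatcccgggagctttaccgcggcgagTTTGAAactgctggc
Ccnb2: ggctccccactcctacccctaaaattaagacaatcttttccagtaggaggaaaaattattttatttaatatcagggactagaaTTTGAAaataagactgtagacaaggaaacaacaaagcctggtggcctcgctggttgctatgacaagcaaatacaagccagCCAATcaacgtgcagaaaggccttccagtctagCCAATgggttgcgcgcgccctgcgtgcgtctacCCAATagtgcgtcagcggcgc
Ccnb1: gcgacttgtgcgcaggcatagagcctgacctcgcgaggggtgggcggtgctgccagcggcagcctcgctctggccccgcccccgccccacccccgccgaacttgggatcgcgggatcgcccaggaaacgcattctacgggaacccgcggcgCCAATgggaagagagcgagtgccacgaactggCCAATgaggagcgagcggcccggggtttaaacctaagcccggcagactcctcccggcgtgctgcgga
Cdkn1b: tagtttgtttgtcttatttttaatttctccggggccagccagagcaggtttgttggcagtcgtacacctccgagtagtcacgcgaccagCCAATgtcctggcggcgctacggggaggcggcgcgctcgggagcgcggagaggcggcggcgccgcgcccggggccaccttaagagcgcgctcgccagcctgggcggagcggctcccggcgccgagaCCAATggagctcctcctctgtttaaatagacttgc

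The Cdk1 window held 2 TTTGAA matches, which began at -71 and -15 relative to the gene start, and 3 CCAAT matches on the opposite strand. Ccnb2 held 3 CCAAT matches, which began at -87, -54 and -21, and 1 TTTGAA farther out, at -167. Ccnb1 held 2 CCAAT matches, at -99 and -67, and Cdkn1b also held 2, at -161 and -35, and neither window had TTTGAA. The CCAAT letters were thus held both by the 3 genes that were lower with 1,10-Phen and by Cdkn1b, which was higher there. Of the windows not shown, 1 of the 2 for Ccnd3 held a CCAAT, at -108, and that of Ccne1 held none of the motifs. TTTNNCGC, letters close to an E2F site, was matched 2 times in Cdk1 and in none of the other windows of the 6 genes, and TTCGAA and CACGTG in none of them. Both strands were searched, and no 2 matches in these windows shared a base. Among all 32851 promoter windows cut to the same 250 bases, 16.0% held TTTGAA, 33.8% CCAAT, 4.28% TTTNNCGC, 1.34% TTCGAA and 6.02% CACGTG. These are matches of letters and not measured binding sites.

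The 6 libraries held between 20181396 and 21169667 estimated counts. Of 8 macrophage markers, all 8 had at least 50 counts in every library, and their summed level ranged from 7122 CPM (counts relative to library size, scaled with TMM factors) with 25-HC to 11337 with fatostatin. Single markers differed more than this sum. With 1,10-Phen Mertk held 223 counts against 1829 with IL4 alone and Fcgr1 153 against 651. Of the 8, Cd14 alone held more counts there than with IL4 alone, 1584 against 947. Markers of other bone marrow cells were low, and they differed between the libraries. The 9 neutrophil markers, all of them in the tables, summed to 204 CPM with IL4 alone, 279 with fatostatin, 314 with betulin, 335 with 25-HC, 56.4 with PF429424 and 24.6 with 1,10-Phen, and the neutrophil marker Ly6g was at 0 in the last 2 of these. The 5 progenitor markers summed to 32.9 CPM with IL4 alone, between 16.2 and 38.5 with fatostatin, betulin, 25-HC and PF429424, and 7.34 with 1,10-Phen, where Myb was at 0. Cd34 and Gata2 made up most of these sums. They moved apart with 25-HC, where Gata2 held 455 counts against 92 with IL4 alone and Cd34 298 against 525. The 6 stromal markers summed to 98.5 CPM with IL4 alone, 96.9 with 1,10-Phen and between 34.3 and 76.9 in the other 4 libraries. Col1a1 and Col1a2 carried nearly all of the stromal sum, with 1027 and 1048 counts with IL4 alone. In that library Pdgfra held 27 counts, Col3a1 8, Dcn 6 and Lum 0. Summed levels of the T cell, B cell, dendritic cell and erythroid lists were at most 8.33 CPM in any library. The part of these cells in the values below was not tested.

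The cyclin A and B genes and Cdk1 were the members farthest below their IL4 level with 1,10-Phen, and all 4 stood in the same order across the 6 libraries. From the highest to the lowest normalised level this order was IL4 alone, betulin, fatostatin, 25-HC, PF429424 and 1,10-Phen. Counts below are estimated counts as deposited, rounded, and libraries are named in the order of the gene's normalised level. Ccna2, cyclin A2 (chr3:36564865-36573038), held 2512 counts with IL4 alone, 2011 with betulin, 1715 with fatostatin, 1276 with 25-HC, 986 with PF429424 and 9 with 1,10-Phen. The 1,10-Phen value is set by very few reads, and its exact Poisson interval runs from 4.12 to 17.1 counts. Its log2 ratio to the IL4 library was -7.66 (95% counting interval -9.05 to -7.00), a 203-fold lower level, and the size of this ratio depends on the scale. It was -6.93 with a prior count of 10 in place of 2, and -5.28 on the log2(FPKM + 1) scale, where Ccnb2 was at -4.62 and Ccnb1 at -4.28, less far below than the ratios given for them next. With PF429424 the ratio was -1.27 (-1.38 to -1.16) and with 25-HC -1.01 (-1.11 to -0.91), so that the 25-HC value lay at the 2-fold line and its interval reached above it. In bulk RNA, fewer dividing cells and less RNA of these genes per cell cannot be told apart.

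**Figure D1:**
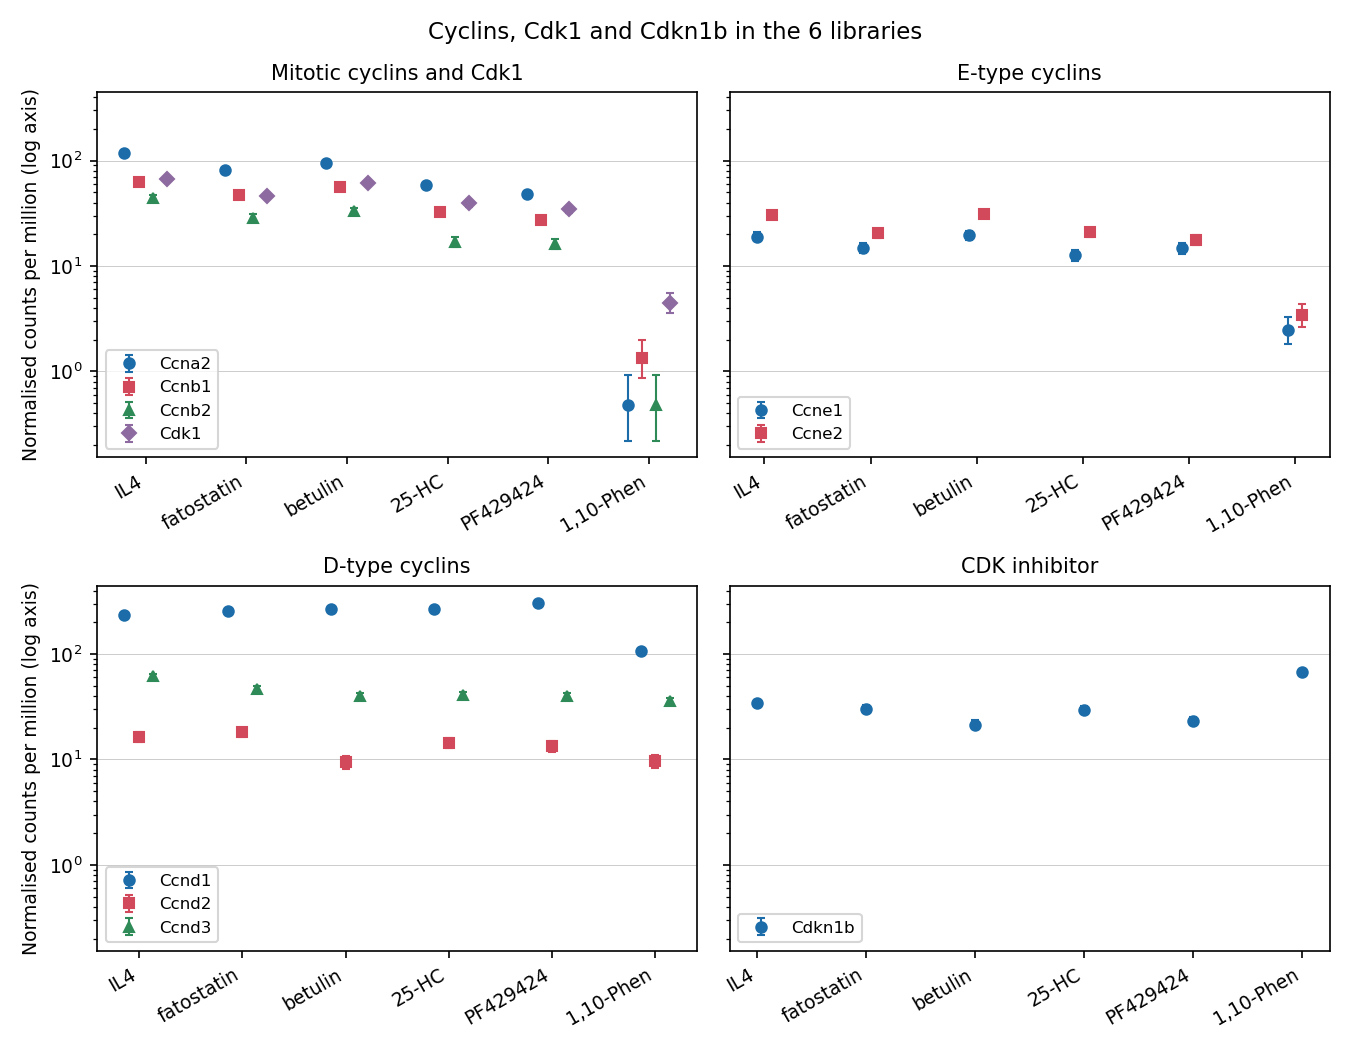
Normalised CPM (log axis) of the 10 genes in the 6 libraries, 1 point per library, with bars for the exact 95% Poisson interval of the count. Ccna2, Ccnb1, Ccnb2 and Cdk1 share one order of levels over the libraries, in which betulin stands above fatostatin, unlike the order along the axis. They are the genes farthest below their IL4 level with 1,10-Phen. Cdkn1b is higher in the 1,10-Phen library than in any other library, at 67.6 against 34.4 with IL4 alone.

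Ccnb1, cyclin B1 of the mitotic kinase (chr13:100778739-100786486), followed with 1333 counts with IL4 alone, 1210 with betulin, 996 with fatostatin, 707 with 25-HC, 550 with PF429424 and 25 with 1,10-Phen. The compound libraries all lay below IL4 alone, betulin only by a log2 difference of 0.13. The log2 ratio was -5.44 (-6.17 to -4.97) with 1,10-Phen, or 43.3-fold lower, -1.19 (-1.34 to -1.05) with PF429424 and -0.95 (-1.08 to -0.81) with 25-HC. Ccnb2, cyclin B2 (chr9:70407689-70421554), held 944 counts with IL4 alone, 711 with betulin, 608 with fatostatin, 372 with 25-HC, 329 with PF429424 and 9 with 1,10-Phen. Its 25-HC and PF429424 levels did not differ beyond counting error, with a log2 difference of 0.06 (-0.15 to 0.28), while every other pair of neighbours in this order differed for these 4 genes. Ccnb2 was 76.2-fold lower with 1,10-Phen (log2 ratio -6.25, interval -7.64 to -5.58), and it had the lowest ratio of the 10 genes with PF429424 (-1.44) and with 25-HC (-1.37).

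Cdk1, the mitotic kinase itself (chr10:69335146-69352912), held 1422 counts with IL4 alone, 1294 with betulin, 981 with fatostatin, 861 with 25-HC, 702 with PF429424 and 84 with 1,10-Phen. All 5 compound libraries lay below IL4 alone, and the drop with 1,10-Phen was smaller than that of its cyclin partners. Its log2 ratio was -3.85 (-4.21 to -3.56) with 1,10-Phen, or 14.4-fold lower, and its interval did not overlap that of Ccna2, Ccnb1 or Ccnb2 there. With PF429424 it was -0.94 (-1.07 to -0.81), short of 2-fold by the main scaling, and -1.07 with library totals as the scaling. Per transcript length the summed FPKM of Ccna2, Ccnb1 and Ccnb2 was 103 with IL4 alone, 81.0 with betulin, 69.0 with fatostatin, 47.3 with 25-HC, 38.1 with PF429424 and 0.96 with 1,10-Phen. The makeup of that sum was alike in the first 5 of these libraries, with Ccna2 between 41.9% and 45.2% of it. With 1,10-Phen Ccna2 was 16.7% and Ccnb1 54.2% of a sum that rests on the low counts given above.

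The E-type cyclins were near their IL4 level with betulin, below it by less than 2-fold with fatostatin, 25-HC and PF429424, and lower with 1,10-Phen. Ccne1, cyclin E1 (chr7:38097984-38107490), held 417 counts with betulin, 408 with IL4 alone, 313 with fatostatin, 299 with PF429424, 279 with 25-HC and 46 with 1,10-Phen. Betulin and IL4 alone did not differ beyond counting error, nor did fatostatin and PF429424, or PF429424 and 25-HC. Ccne2, cyclin E2 (chr4:11190433-11204779), held 661 counts with betulin, 654 with IL4 alone, 458 with 25-HC, 433 with fatostatin, 357 with PF429424 and 64 with 1,10-Phen. Again betulin matched IL4 alone within counting error, and 25-HC and fatostatin did not differ beyond it. The log2 ratios with 1,10-Phen were -2.90 (-3.42 to -2.51) for Ccne1, 7.46-fold lower, and -3.12 (-3.55 to -2.78) for Ccne2, 8.67-fold lower. On the FPKM scale the paralogs were close to each other in all 6 libraries, with Ccne1 between 45.9% and 54.1% of their sum, which was 22.2 FPKM with IL4 alone and 2.27 with 1,10-Phen.

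The D-type cyclins behaved unlike the mitotic group, and unlike each other. Ccnd1, cyclin D1 (chr7:144929931-144939831), held 6176 counts with PF429424, 5913 with 25-HC, 5678 with betulin, 5399 with fatostatin, 5043 with IL4 alone and 2015 with 1,10-Phen. It was thus slightly above IL4 alone with PF429424, 25-HC, betulin and fatostatin, and lowest with 1,10-Phen, while the cyclin A and B genes were below IL4 alone in all 5 compound libraries. Among all libraries but that of 1,10-Phen its order was the reverse of the Ccna2 order except for the places of betulin and fatostatin, and 25-HC and betulin did not differ beyond counting error. The log2 ratio was 0.37 (0.32 to 0.43) with PF429424, 0.20 with 25-HC, 0.18 with betulin and 0.11 with fatostatin, of which the fatostatin value turned to -0.03 when the median of the 6 libraries served as the reference. With 1,10-Phen it was -1.12 (-1.20 to -1.05), or 2.18-fold lower.

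Ccnd3, cyclin D3 (chr17:47505051-47599689), held 1327 counts with IL4 alone, 997 with fatostatin, 892 with 25-HC, 820 with PF429424, 856 with betulin and 665 with 1,10-Phen. All 5 compound libraries lay below IL4 alone, in a narrow band of log2 ratios from -0.40 with fatostatin to -0.79 with 1,10-Phen, and none was 2-fold lower. The 25-HC, PF429424 and betulin levels did not differ from their neighbours among those 3 beyond counting error. Ccnd2, cyclin D2 (chr6:127125162-127152188), held 386 counts with fatostatin, 351 with IL4 alone, 314 with 25-HC, 271 with PF429424, 179 with 1,10-Phen and 201 with betulin. Of the neighbours in this order, PF429424 and 1,10-Phen differed beyond counting error and the other pairs did not. Betulin and 1,10-Phen thus stood at like levels of this gene, with log2 ratios of -0.79 (-1.05 to -0.54) and -0.76 (-1.04 to -0.51). With library totals as the scaling both Ccnd2 and Ccnd3 passed 2-fold with 1,10-Phen, Ccnd3 at -1.03 and Ccnd2 barely, a setting that moved the median of all genes in that comparison to -0.25.

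On the FPKM scale Ccnd1 was the most abundant of the 10 genes in every library, at 65.2 with IL4 alone, between 67.9 and 76.6 with fatostatin, betulin, 25-HC and PF429424, and 25.3 with 1,10-Phen. It made up 63.5% of the summed D-type FPKM with IL4 alone, 70.6% with fatostatin, 75.3% with betulin, 75.2% with 25-HC, 76.9% with PF429424 and 57.8% with 1,10-Phen. Ccnd3 supplied most of the remainder, 33.7% with IL4 alone, 20.9% with PF429424 and 39.0% with 1,10-Phen, and Ccnd2 between 1.69% and 3.20%. The sum itself lay between 93.7 and 103 FPKM in the IL4 library and the first 4 compound libraries. With 1,10-Phen it was 43.8 FPKM, a value as deposited and without TMM factors. The median of all genes in that comparison was -0.19 on the log2(FPKM + 1) scale.

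**Figure D2:**
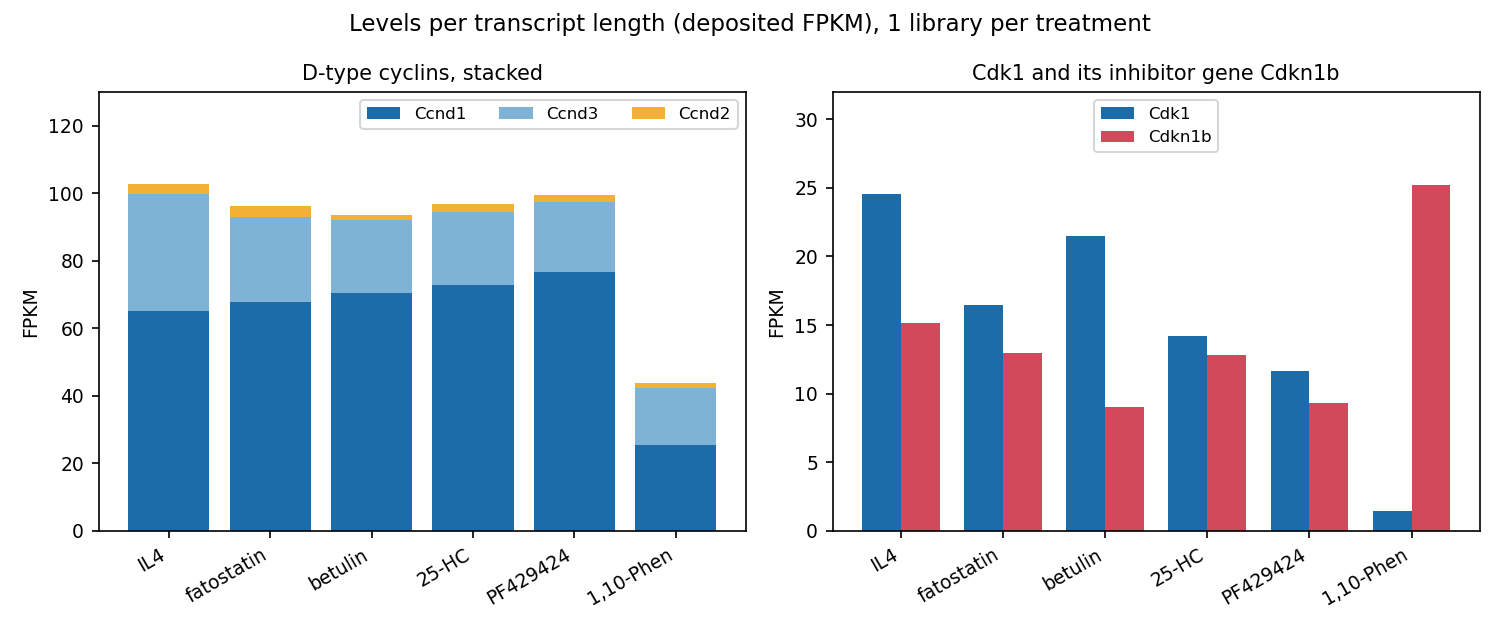
Deposited FPKM (level per transcript length) of the 3 D-type cyclin genes, stacked, and of Cdk1 beside Cdkn1b, 1 library per treatment. The D-type sum is 43.8 FPKM with 1,10-Phen against 103 with IL4 alone, and Cdkn1b exceeds Cdk1 only in the 1,10-Phen library.

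Cdkn1b, the gene of the inhibitor p27 (chr6:134920401-134925525), was the single member above its IL4 level with 1,10-Phen. It held 1263 counts with 1,10-Phen, 738 with IL4 alone, 647 with fatostatin, 653 with 25-HC, 473 with PF429424 and 457 with betulin. The 1,10-Phen library was the highest and the other 4 compound libraries were all below IL4 alone. Its log2 ratio with 1,10-Phen was 0.97 (0.84 to 1.11), or 1.97-fold higher, just under the 2-fold line. The ratio was 0.98 with DESeq2 size factors, 0.73 with library totals, 0.70 on the log2(FPKM + 1) scale and 1.17 against the median of the 6 libraries. With betulin it was -0.68 (-0.85 to -0.51), with PF429424 -0.56 (-0.73 to -0.39), with 25-HC -0.21 and with fatostatin -0.17.

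The balance of inhibitor to kinase transcript, both as FPKM, was 0.619 Cdkn1b per Cdk1 with IL4 alone, 0.421 with betulin, 0.786 with fatostatin, 0.804 with PF429424, 0.904 with 25-HC and 17.9 with 1,10-Phen. It was below 1 in 5 libraries and far above it in the 1,10-Phen library. Most of that change lay in Cdk1, at 1.41 FPKM with 1,10-Phen against 24.53 with IL4 alone, where Cdkn1b was at 25.25 against 15.18. Other kinases were less far below IL4 alone, Cdk2 at 4.85 against 20.03 FPKM and Cdk4 at 62.01 against 110.75. In the 1,10-Phen library Cdkn1b, at 25.25 FPKM, was level with Ccnd1 at 25.31 FPKM, and stood second among the 10 genes, against seventh with IL4 alone. The sum of the 8 cyclins and Cdk1 was 252.6 FPKM with IL4 alone and 48.45 FPKM with 1,10-Phen. These FPKM values are as deposited, without TMM factors. On the log2(FPKM + 1) scale the median of all genes was -0.19 with 1,10-Phen.

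Counted together, 7 of the 10 genes were at least 2-fold lower beyond counting error with 1,10-Phen (Ccna2, Ccnb1, Ccnb2, Ccnd1, Ccne1, Ccne2 and Cdk1) and none was higher, where 11.8% of the 11898 genes compared were lower and 7.59% higher by the same rule. With PF429424 3 were lower (Ccna2, Ccnb1 and Ccnb2) and none higher, against 5.63% and 2.49% of all genes. With 25-HC 2 were lower (Ccna2 and Ccnb2) and none higher, against 5.69% and 3.27%. No member passed 2-fold in either direction with betulin, where 2.29% of all genes were lower and 1.91% higher, or with fatostatin, where 1.06% were lower and 0.874% higher. The shares lower were above those of all genes for 1,10-Phen, PF429424 and 25-HC, and at 0 for the other 2 compounds. The members were chosen with earlier results of these data known, so these shares are a description and not a test. The median log2 ratio over the 10 genes was -3.01 with 1,10-Phen, -0.70 with PF429424, -0.59 with 25-HC, -0.40 with fatostatin and -0.22 with betulin, while the median of all genes lay between -0.02 and 0.02 in each comparison. By counting error alone, with no limit on size, 9 members were below IL4 alone with 1,10-Phen and 1 above, against 37.0% and 36.0% of all genes. With PF429424 these were again 9 and 1, against 27.9% and 32.7%. With 25-HC they were 8 and 1, against 31.5% and 33.6%, and Ccnd2 was not separated from IL4 alone. With betulin they were 7 and 1, against 25.3% and 27.6%, and Ccne1 and Ccne2 were not separated. With fatostatin they were 8 and 1, against 17.9% and 19.4%, and Ccnd2 was not separated. The 1 above was Ccnd1 with every compound but 1,10-Phen, where it was Cdkn1b. All 5 comparisons share the IL4 library, and when the median of the 6 libraries took its place no member was 2-fold lower with PF429424 or 25-HC. Over all 11898 genes the number lower fell as well, from 670 to 159 with PF429424 and from 677 to 205 with 25-HC. The median over the 10 genes then turned to 0.16 with fatostatin and 0.43 with betulin, and Ccna2, Ccnb1, Ccnb2 and Cdk1 were above that reference in both, from 0.12 to 0.60.

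**Figure D3:**
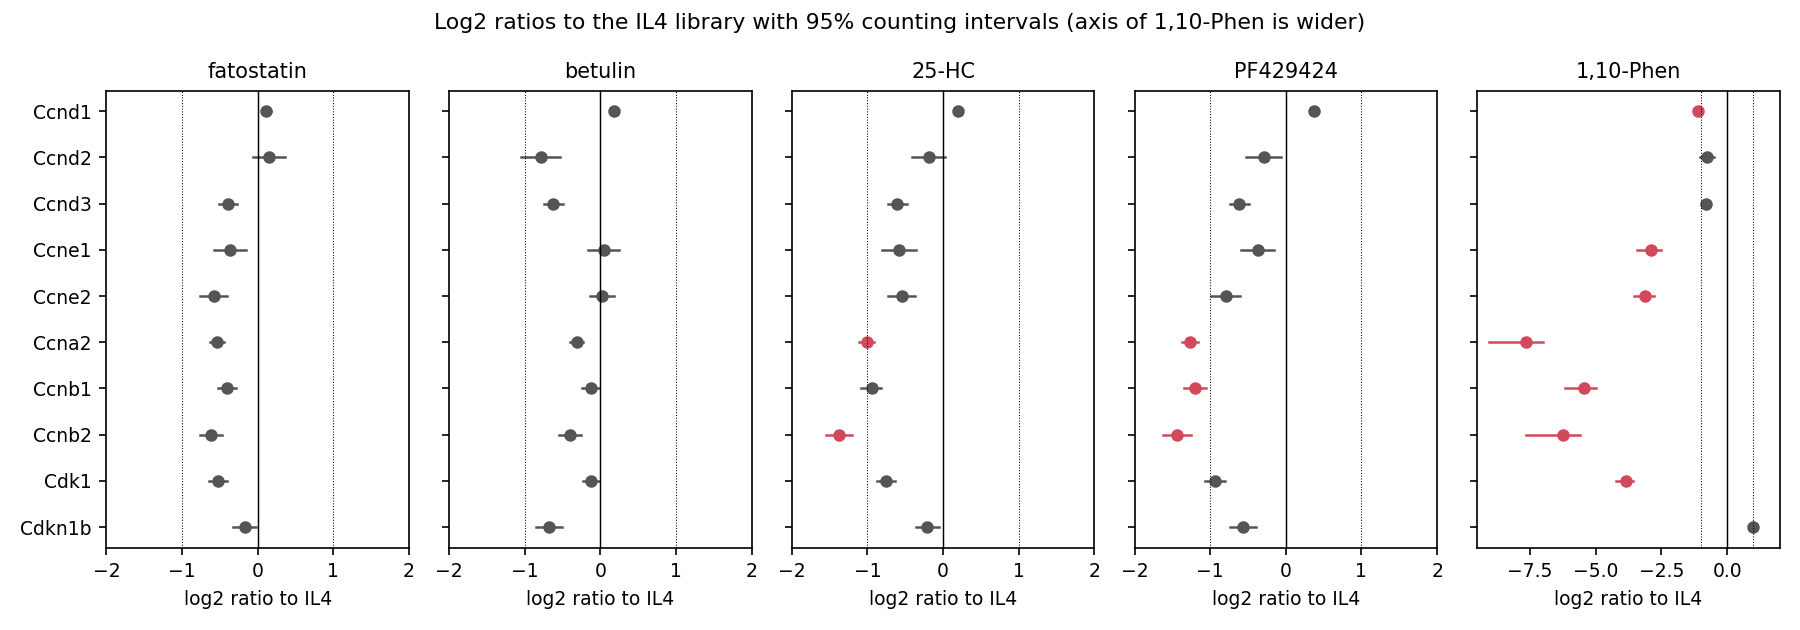
Log2 ratio of each of the 10 genes to the IL4 library in the 5 compound libraries, with exact 95% counting intervals, dotted lines at 2-fold and red points for genes past 2-fold beyond counting error. Red points number 7 with 1,10-Phen (drawn on a wider axis), 3 with PF429424 and 2 with 25-HC, and all lie to the left.

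Ratios taken between compound libraries do not involve the IL4 library. Against each of the other 4 compounds, 1,10-Phen had 7 members at least 2-fold lower, the 7 named above, and 1 higher, which was Cdkn1b. These 4 comparisons all use the same 1,10-Phen library and are not independent of each other. Of all genes compared, 11.9% were lower and 7.3% higher than with fatostatin, 11.1% and 6.98% than with betulin, 9.07% and 7.3% than with 25-HC, and 9.54% and 7.63% than with PF429424. The log2 ratio of Cdkn1b was 1.65 against betulin, 1.53 against PF429424, 1.18 against 25-HC and 1.15 against fatostatin. Ccnd1 lay between -1.49 (-1.57 to -1.42) against PF429424 and -1.23 (-1.31 to -1.16) against fatostatin. Among the 6 pairs that leave out 1,10-Phen, PF429424 against betulin had 2 members 2-fold lower, Ccnb1 at -1.06 (-1.22 to -0.92) and Ccnb2 at -1.04 (-1.23 to -0.85), where 2.43% of all genes were lower and 0.992% higher. The other 5 pairs had no member past 2-fold in either direction. Of all genes, 1.86% were lower and 1.17% higher with betulin than with fatostatin, 4.74% and 2.43% with 25-HC than with fatostatin, and 3.89% and 1.45% with PF429424 than with fatostatin. With 25-HC against betulin these shares were 2.43% and 1.19%, and with PF429424 against 25-HC 1.88% and 1.81%.

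The genes whose pattern over the 6 libraries was most like each member were ranked among 9735 genes with a mean CPM of at least 5, by the root mean square difference of centred log2 CPM. The ranking is a description over 6 libraries, 1 of which, 1,10-Phen, stood far from the rest for 7 of the members. Nearest to Cdk1 were Shcbp1 (0.05 log2 units), Anln, which encodes the cytokinesis protein anillin (0.06), and E2f8, an E2F repressor (0.07). Nearest to Ccnb1 were Cdca3, Top2a and Kif11, to Ccnb2 Kif14, Pclaf and Kif2c, and to Ccna2 Pbk, Mki67 and E2f7, at differences from 0.10 to 0.45. These include a topoisomerase (Top2a), mitotic kinesins (Kif11, Kif14 and Kif2c) and the proliferation antigen gene Mki67. Ccne1 and Ccne2 shared Fen1, a flap nuclease of DNA replication, and Spc25, a kinetochore gene, among their 3 nearest. Ccnd1 was nearest to Cdc25a, the gene of a phosphatase that activates CDKs (0.06), Fkbp4 and Cdk10, and Cdkn1b to Sparc, Kmt2e and Ralgps1. Ccnd2 was nearest to Rpl29, Proser3 and Mtx3, and Ccnd3 to Ppp1r21, Rp2 and Pik3r1. The nearest other member was in place 5 of the ranking for Ccne1, 7 for Ccna2 and for Ccnb2, 8 for Ccne2, 20 for Ccnb1, 47 for Cdk1, 220 for Ccnd2, 1950 for Ccnd3, 3188 for Ccnd1 and 5862 for Cdkn1b.

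Other genes of the same machinery are given by list, and each list's counts stand beside the shares of all genes past 2-fold: 11.8% lower and 7.59% higher with 1,10-Phen, 5.63% and 2.49% with PF429424, and 5.69% and 3.27% with 25-HC. The G1 kinases that pair with D-type cyclins did not pass 2-fold. With 1,10-Phen Cdk4 was at a log2 ratio of -0.61 and Cdk6 at 0.67, and Cdk6 reached 0.92 with 25-HC. Cdk2, the partner of cyclins E and A, was lower with 1,10-Phen (-1.85; 1 of 4 kinases lower, none higher). Cdk7, which activates other CDKs, was at 0.06. Of 14 other cyclin genes compared, with Ccna1 and Ccnb3 not compared, 1 was lower with 1,10-Phen and 1 higher, and none with any other compound, which is near or below the shares of all genes. Ccnf, cyclin F, a cell cycle ubiquitin ligase subunit, was at -2.89 and Ccng2, a cyclin G linked to cell cycle arrest, was at 1.06. The transcriptional cyclin genes ranged from -0.19 (Ccnc) to 0.71 (Ccnt1) with 1,10-Phen, with Ccnh at 0.05, Ccnl1 at 0.17 and Ccnk at 0.62.

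The other CDK inhibitor genes went in both directions. Cdkn1a, the gene of p21, held 7786 counts with IL4 alone, between 7074 and 9614 with fatostatin, betulin, 25-HC and PF429424, and 17733 with 1,10-Phen, a log2 ratio of 1.39 (1.35 to 1.43). Cdkn2c, the gene of the CDK4 and CDK6 inhibitor p18, moved the opposite way, with 907 counts with IL4 alone, 389 with 25-HC, 272 with PF429424 and 40 with 1,10-Phen. Its log2 ratio with 1,10-Phen was -4.24 (-4.80 to -3.84), short of that of Ccna2, Ccnb1 and Ccnb2 and with an interval that overlapped that of Cdk1. Of 5 inhibitor genes compared, with Cdkn2a not compared, 2 were higher and 1 lower with 1,10-Phen, 1 higher and 2 lower with PF429424, 1 each way with 25-HC, 1 higher with betulin and none with fatostatin. The one higher with betulin (2.59), 25-HC (1.94) and PF429424 (2.38) was Cdkn1c, the gene of p57, from 16 counts with IL4 alone. On the FPKM scale Cdkn1a was at 202 with IL4 alone and 447 with 1,10-Phen, above Cdkn1b in both libraries.

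Upstream of the cyclin genes, the RB and E2F list of 13 had 5 members lower with 1,10-Phen and 4 with PF429424, none higher, and none either way with the other 3 compounds. E2f7 and E2f8, repressors that are themselves made in S and G2, were lower with 1,10-Phen, E2f8 at -4.04, and E2f7 held 2 counts against 423 (interval of the log2 ratio -10.6 to -5.66). E2f2 was at -3.82 and Rbl1, the gene of p107, at -1.91. Tfdp2 was at -1.46 with 1,10-Phen and -1.15 with PF429424. With 1,10-Phen 8 of the 13 genes were below their IL4 level, among them Tfdp1 (-0.78), E2f3 (-0.52) and Rbl2 (-0.26), which did not pass 2-fold. The 5 above it included Rb1, E2f1 and E2f4, at 0.13, 0.09 and 0.22. In the list of MuvB subunits with MYBL2 and FOXM1, the factors that switch on mitotic genes, Foxm1 was at -1.05 with 25-HC, -1.14 with PF429424 and -4.93 with 1,10-Phen, and Mybl2 at -3.47 with 1,10-Phen. Lin54, the DNA-binding MuvB subunit, was higher with 1,10-Phen at 1.05, and the other 4 of the 7 genes lay between -0.41 and 0.21 in all 5 comparisons.

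Of the 10 regulators that act on CDK1, 7 were lower with 1,10-Phen and none higher, with a median log2 ratio of -1.78. Plk1, a mitotic kinase that promotes CDK1 activation, was at -3.52, and the CDK1-activating phosphatase gene Cdc25c at -2.94. Of the 2 kinases that hold CDK1 inactive, Pkmyt1 was lower, at -2.29, and Wee1 was at -0.65. With PF429424 2 of the 10 were lower, Plk1 at -1.42 and Cdc25b at -1.24. A further list held 17 genes of the ubiquitin ligases that destroy cyclins and p27 and of regulators that activate or restrain them. Of these, 4 were lower with 1,10-Phen and 3 with PF429424, where 11.8% and 5.63% of all genes were. Fbxo5, one of the regulators, was lower in both, at -3.47 and -1.15. Ube2c, the ubiquitin-conjugating enzyme of the anaphase-promoting complex, was at -4.75 and its activator Cdc20 at -3.77 with 1,10-Phen, and Skp2, which targets p27, at -1.36. The 7 core anaphase-promoting complex genes (Anapc1, Anapc2, Anapc10, Anapc11, Cdc16, Cdc23 and Cdc27) were not 2-fold different in any of the 5 comparisons, with a range from -0.64 to 0.45.

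**Figure D4:**
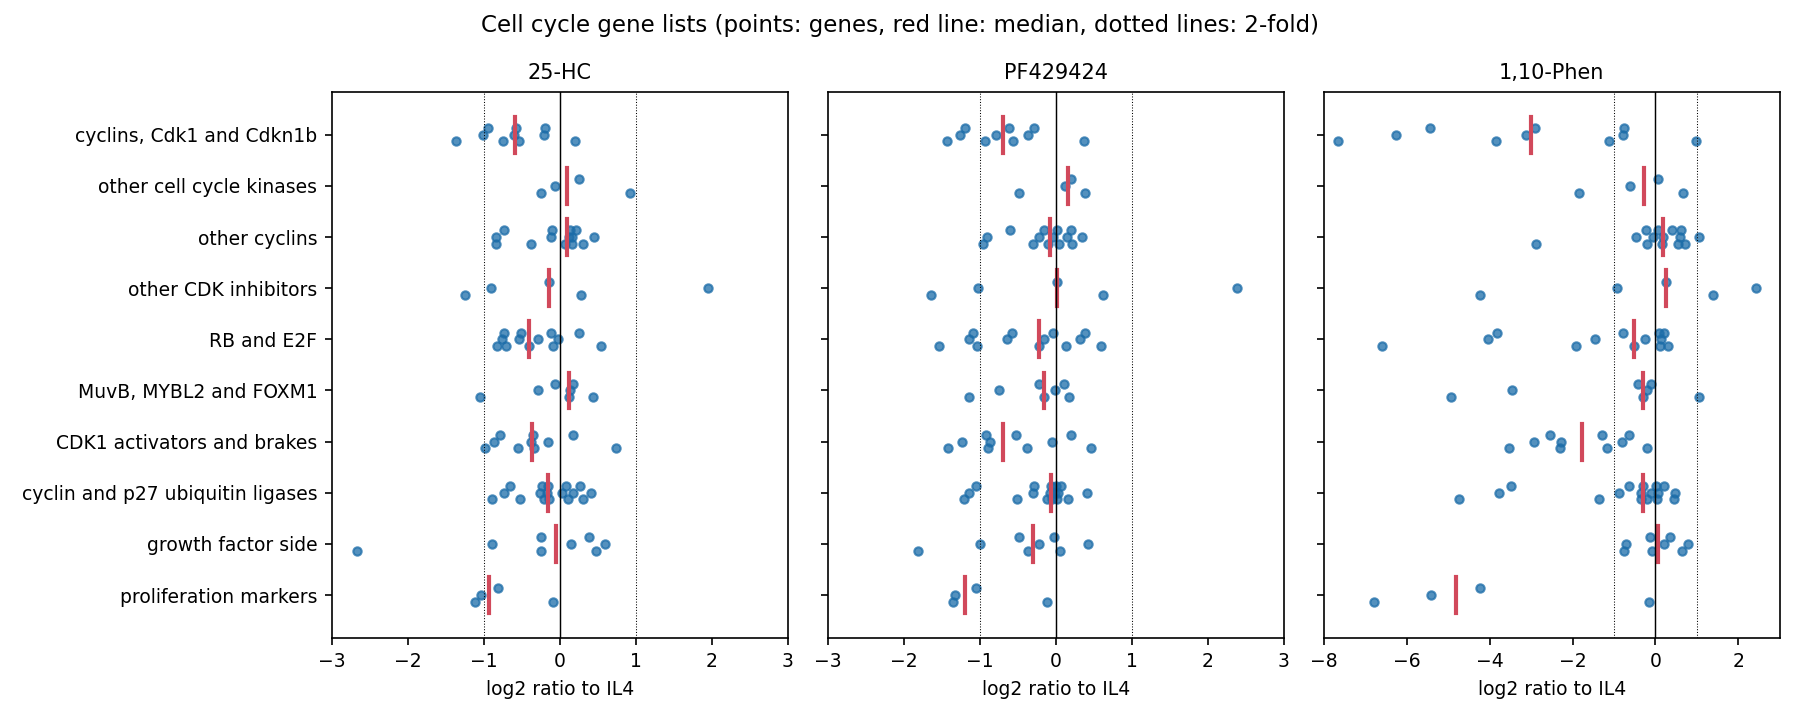
Log2 ratios to the IL4 library of the genes compared in the 10 described here and in 9 further cell cycle lists, 1 point per gene, with the list median as a red line and dotted lines at 2-fold, for 25-HC, PF429424 and 1,10-Phen (wider axis). The medians with 1,10-Phen are -3.01 for the cyclins, Cdk1 and Cdkn1b, -1.78 for the CDK1 regulators and -4.82 for the proliferation markers, and lie between -0.52 and 0.26 for the other 7 lists.

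On the growth factor side, Csf1r, the receptor for M-CSF, was below its IL4 level in all 5 compound libraries and did not pass 2-fold in any. Its log2 ratio was -0.40 with fatostatin, -0.69 with betulin, -0.89 with 25-HC, -0.996 with PF429424, just short of the 2-fold line, and -0.77 with 1,10-Phen. Myc, which acts early in the growth response, was above its IL4 level in all 5, from 0.20 with betulin to 0.63 with 1,10-Phen. Maf, a factor known to restrain macrophage division, was lower with betulin (-1.32), 25-HC (-2.68) and PF429424 (-1.81), was at -0.71 with 1,10-Phen, and was the only one of the 8 genes compared in this list to pass 2-fold in any comparison. Of the 4 proliferation markers, Mki67 was at -6.80 with 1,10-Phen, Top2a at -5.41 and Birc5, survivin, at -4.24, whereas Pcna, the replication clamp, was at -0.15. With 12269 counts of Mki67 in the IL4 library against 94 with 1,10-Phen, that difference rests on far more reads than those of Ccna2 and Ccnb2.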

How the data were processed

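RNA-seq covered 6 libraries of total RNA from mouse macrophages, 1 per treatment. The deposited tables give, per the file headers, an estimated count (expected count) per gene, not scaled between libraries, and FPKM, scaled by the authors for transcript length and depth. Per the submitters' processing notes the tools included DESeq2, HISAT2, Bowtie2 and RSEM 1.2.12, with no role stated for any. No strand setting is given in the sources used here. Gene IDs are NCBI IDs on GRCm38, and 99.3% were found in RefSeq, which supplied positions and promoters. Estimated counts of Ccna2, Ccnd1, Ccnd3 and Ccne2 are not whole in at least 1 library, so reads shared with other transcripts may have been split.

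Counts were rounded and scaled with TMM factors (edgeR 4.0.16, R 4.3.3), and log2 ratios to the IL4 library used a prior count of 2. The 11898 genes compared had a CPM of at least 1, by library total, in 1 library or more. Called genes had a log2 ratio of at least 1 in size and an exact Clopper-Pearson 95% interval that excluded no change. Intervals cover counting error only. A count of 3, the floor, is between 0.137 and 0.161 CPM. Because each treatment had a single library, treatments were not tested against each other. The calculation was tested on simulated data. Context genes named are 2 per list, those of largest ratio in size (CPM 5 or more in either library), all 10 members, and the 3 genes most like each member. Further list genes were named after their values were seen. The members and lists were chosen with earlier results of these data known. The 8 alternatives were prior counts of 0.5 and 10, size factors of DESeq2 1.42.0 or plain library totals as scaling, a CPM filter at 5 or none, log2(FPKM + 1), and the median of the 6 libraries in place of IL4. Python 3.11.15, numpy 2.4.6, pandas 2.3.3 and SciPy 1.17.1 were used.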

Additional observations from a re-analysis of the deposited data

How the results depend on the processing

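Counts of the 10 genes at least 2-fold lower or higher, and the ratios behind them, were recomputed under 8 alternatives. With the median of the 6 libraries as reference, the number lower went from 2 to 0 with 25-HC and from 3 to 0 with PF429424, the number higher went from 0 to 1 with 1,10-Phen (Cdkn1b), and the 7 lower with 1,10-Phen stayed 7. Of all 11898 genes, the median reference left 205 lower with 25-HC, against 677, and 159 with PF429424, against 670. With 1,10-Phen it left 676 higher, against 903, and 1063 lower, against 1408. The IL4 library, which that median replaces, ranked first of the 6 for Ccna2, Ccnb1, Ccnb2 and Cdk1. With library totals 9 members were lower with 1,10-Phen and 4 with PF429424, and with log2(FPKM + 1) 7 and 4. The other 5 alternatives (DESeq2 size factors, no filter, a CPM of at least 5 and both prior counts) gave the main counts in all 5 comparisons. No called ratio changed sign under any of the 8. Uncalled ones did with the median reference, among them Ccna2, Ccnb1, Ccnb2 and Cdk1 with fatostatin and betulin. With betulin the ratios of Ccne1 and Ccne2, 0.04 and 0.03 in the main setting, also changed sign with library totals and with log2(FPKM + 1). They were -0.02 and -0.04 under either of these. Over all genes, 903 were higher and 1408 lower with 1,10-Phen, against 641 and 1940 with library totals and 399 and 1201 with log2(FPKM + 1). With PF429424 296 were higher and 670 lower, against 216 and 871 and against 95 and 397. With fatostatin 104 were higher and 126 lower, against 23 and 47 with log2(FPKM + 1) and 150 and 70 with the median reference. An alternative that needs transcript lengths, for the shares of the D-type cyclins, was not run because the files used here list none. No paired analysis was possible because each treatment has 1 library. Depth limits Ccna2 and Ccnb2 with 1,10-Phen, at 9 counts each.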
